A study of Mus musculus with 9 samples.

Results

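The 49 translation initiation factor genes of mouse bone marrow-derived mast cells were described across 3 groups of 3 libraries. Members are all genes in the deposited tables whose symbol begins with Eif and a digit from 1 to 6. The eIF2 kinases (symbols beginning with Eif2ak) and the symbols marked -ps, for pseudogenes, are left out, so that 49 of 56 matching symbols remain among 15109 genes. All cells were wild type and of the C57BL/6 strain, grown from bone marrow for at least 4 weeks in medium conditioned by WEHI-3 cells, which secrete interleukin 3. Taxinine cells were sensitised with IgE against dinitrophenyl, given taxinine (a taxane diterpenoid of yew) for 1 h, and then stimulated with dinitrophenyl-coupled albumin, the antigen that crosslinks IgE on its receptor. BSA cells had the same IgE and antigen without taxinine, and Control cells were untreated. The labels state neither the dose of taxinine nor how long antigen was present, and name no vehicle and no cells given only taxinine, so an effect of a solvent or of IgE alone cannot be told apart from those of taxinine and antigen. The 3 libraries of a group are called biological replicates without mention of separate animals or cultures, so p-values reflect the spread among these libraries, and this spread may be technical.

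Translation initiation places the ribosome on the start codon of a messenger RNA. eIF2 carries the initiator tRNA in its GTP form and is recharged by the exchange factor eIF2B, while eIF1, eIF1A, eIF3 and eIF5 organise the small ribosomal subunit for scanning. The eIF4F complex, made of the cap-binding eIF4E, the scaffold eIF4G and the RNA helicase eIF4A, brings the messenger RNA, and 4E-BP proteins hold eIF4E back until mTORC1 phosphorylates them. Mast cells activated through the IgE receptor make and secrete cytokine proteins within hours, and eIF4F and eIF2 are the points at which cells most often tune protein synthesis.

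Total counts were 8975371 to 13829804 in Taxinine, 11680348 to 14005776 in BSA and 13712274 to 14116976 in Control libraries. Levels below are CPM, that is counts relative to the library total, with totals scaled by TMM, the trimmed mean of M values, and 3 counts in a library correspond to 0.192 to 0.347 CPM. All 10 mast cell markers were in the table, with summed levels of 43970 to 45110 CPM in Taxinine, 44200 to 46270 CPM in BSA and 40310 to 41550 CPM in Control. The 2 basophil markers, Mcpt8 and Prss34, summed to 541 to 565.3 CPM in Taxinine, 602.2 to 625.9 CPM in BSA and 534.1 to 590.9 CPM in Control. The 5 macrophage markers in the table, of 6 listed, summed to 62.74 to 65.5 CPM in Taxinine, 65.97 to 71.94 CPM in BSA and 59.29 to 60.9 CPM in Control. Of 6 neutrophil and 3 B cell markers, 1 each was in the table, at no more than 0.946 CPM, and of 3 dendritic cell markers Itgax was, at 28.99 to 34.22 CPM. The other markers of these lists, and those of T cells and erythroid cells, were not analysed here. The part of these sums in the results was not tested. In bulk RNA, fewer cells of a type and less RNA per cell cannot be told apart.

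Which initiation factors are abundant in mast cells was read from CPM per kb of exon. In Control cells the highest levels were those of Eif5a, the hypusine-modified factor that keeps stalled ribosomes moving, at 276.3 ± 7.75 CPM per kb, and of Eif1, the guardian of start codon choice, at 233.2 ± 10.2 CPM per kb (SD, n = 3). Eif4a1, the main eIF4A helicase, followed with 153.3 ± 1.31 CPM per kb. The gap below each of these exceeded the summed SDs of the neighbours, whereas the next in order, Eif3h, Eif3c and Eif4b, lay between 121.7 and 124.7 CPM per kb and did not differ beyond their spread. The cap-binding Eif4e was low, at 14.76 ± 0.218 CPM per kb in Control, next to its inhibitor Eif4ebp2 at 14.74 ± 0.512 CPM per kb. Of the other 4E-BP genes, Eif4ebp1 stood higher, at 32.67 ± 2.22 CPM per kb, and Eif4ebp3 lower, at 0.4373 CPM per kb. Subunits of eIF3, which assemble into a single complex, spread from 10.18 CPM per kb for Eif3j1 to 124.7 CPM per kb for Eif3h, with the copy gene Eif3j2 lower still at 0.4475 CPM per kb. Of the 48 gaps between neighbours in the Control order, 23 exceeded the summed SDs and 25 did not. Union exon length was used for all genes, so genes with long rarely used exons read low on this scale. The order changed among the top genes in the activated cells. Eif1 stood first at 354.4 ± 10.7 CPM per kb in Taxinine and 325.8 ± 7.69 CPM per kb in BSA, above Eif5a at 289.2 ± 3.94 CPM per kb in Taxinine and 311.9 ± 16.6 CPM per kb in BSA. In the BSA libraries the gap between these 2 genes was smaller than their summed SDs. The plot of levels per kb gives all members.

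**Figure D1:**
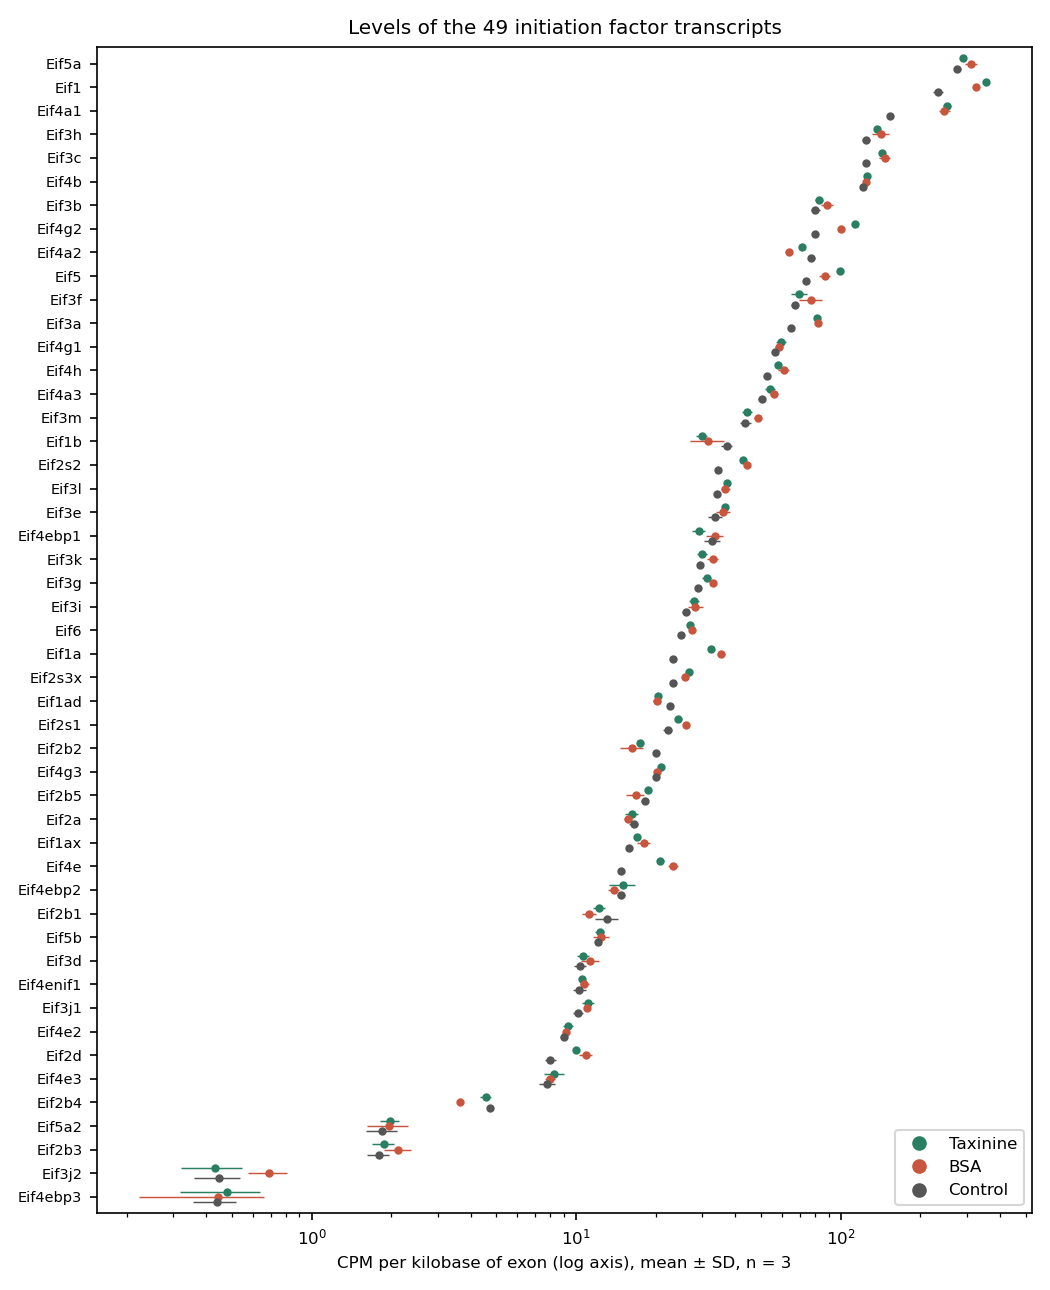
Level of the 49 members in CPM per kb of union exon (log axis) in Taxinine, BSA and Control, as means with SD over 3 libraries, in the order of the Control level. The members reach from 0.4373 CPM per kb for Eif4ebp3 to 276.3 CPM per kb for Eif5a in Control.

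Antigen activation was compared first, as BSA against Control, a contrast that joins IgE sensitisation and antigen. Of the 49 members, 23 rose and 6 fell in BSA by edgeR's quasi-likelihood test with Benjamini-Hochberg adjusted p under 0.05 over all genes. That is 59.2% called, where 34.0% of all 15109 genes were called. The members called higher were 46.9% beside 16.2% of all genes, and those called lower were 12.2% beside 17.8% of all genes. Highly counted genes are called more often, and among the 8786 genes with a mean count of at least 100 the share called was 45.9% (23.3% higher, 22.6% lower). The groups did not overlap for 32 members (65.3%), beside 42.9% of all genes. The median log2 fold change of the members was 0.14, with a range of -0.37 to 0.69, and that of all genes was -0.00.

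The scaling sets where zero lies in this contrast. TMM gave the Control libraries factors of 1.10 to 1.11 and the BSA libraries factors of 0.94 to 0.95, and with plain library totals the median log2 fold change of all genes moved to -0.23 and that of the members to -0.08. With plain totals 8 members were called higher and 18 lower, whereas DESeq2's size factors gave 23 higher and 3 lower. As a share of all counts the members took 1.051 ± 0.00929% in Taxinine, 1.018 ± 0.0175% in BSA and 1.016 ± 0.00656% in Control (SD, n = 3). A set of 8 members was called higher under TMM, plain totals, RLE size factors, DESeq2 and limma on the deposited log2 values alike: Eif1, Eif1a, Eif2s2, Eif2d, Eif3a, Eif4a1, Eif4e and Eif4g2. Another 3, Eif2b2, Eif2b4 and Eif4a2, were called lower in all 5 fits. The other 15 rises were called under TMM and not with plain totals, and 12 of them turned below 0 there.

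**Figure D2:**
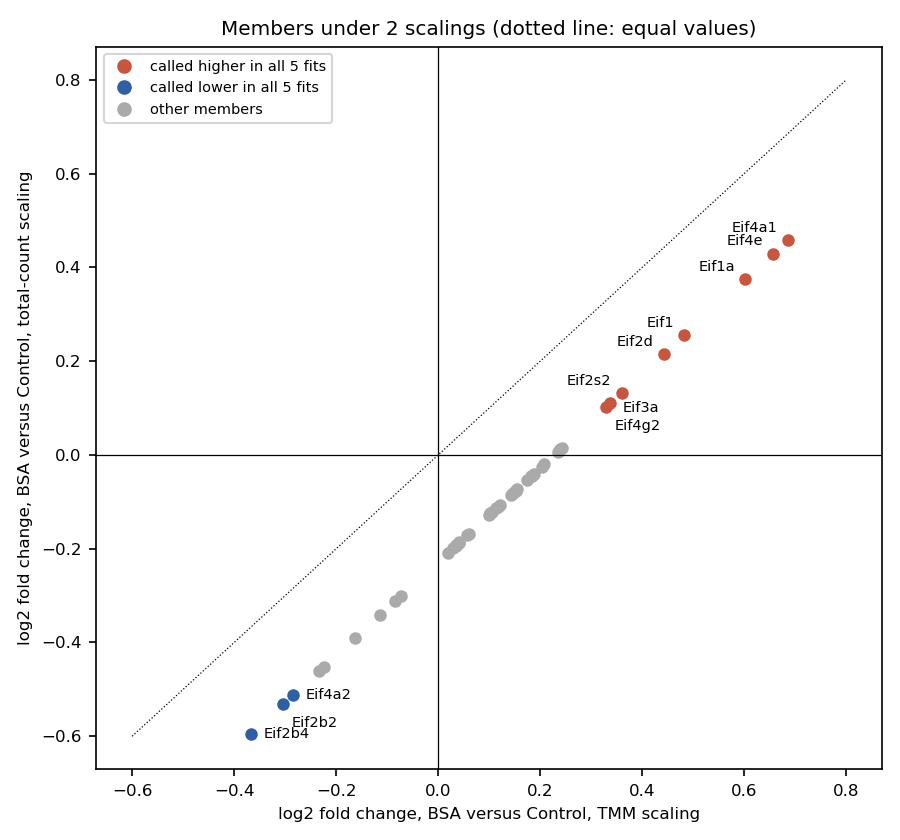
Log2 fold change of BSA versus Control under TMM scaling (x axis) and with plain library totals (y axis), 1 point for each of 47 members (Eif3j2 and Eif4ebp3, with few counts, are not drawn). Points lie below the dotted line of equal values, and the 8 red and 3 blue members were called in the same direction in all 5 fits.

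The eIF4F group held the largest rises. Of 11 members, 5 rose and 1 fell in BSA under TMM, with a median log2 fold change of 0.06, and 3 were called higher and 5 lower with plain totals. Eif4a1 (GRCm38 chromosome 11, 69666936 to 69672423) stood at 1063, 1087 and 1140 CPM in Taxinine, 1069, 1015 and 1122 CPM in BSA and 665, 659 and 670 CPM in Control. Every activated library lay above every Control library, and the log2 fold change of BSA over Control was 0.69 ± 0.04 (edgeR's quasi-likelihood test, adjusted p = 1.76e-18). Eif4a2, the second cytoplasmic eIF4A helicase (chromosome 16, 23107444 to 23114136), moved the opposite way, at 377, 382 and 381 CPM in Taxinine, 345, 345 and 328 CPM in BSA and 413, 401 and 425 CPM in Control. It fell by 0.28 ± 0.04 on the log2 scale in BSA with no overlap (edgeR's quasi-likelihood test, adjusted p = 2.20e-07). Eif4a2 lies outside the rule for named genes and was chosen after its values were seen, as the counterpart of Eif4a1. Exons of Eif4a2 overlap those of Rfc4 on the opposite strand over 3.63% of their length, and snoRNA genes lie within exons of both helicase genes. Whether the counting used strand is not given in the sources used here.

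Eif4e, which binds the cap (chromosome 3, 138526179 to 138559696), had 129, 122 and 125 CPM in Taxinine, 147, 135 and 138 CPM in BSA and 89.0, 87.2 and 89.8 CPM in Control. Its log2 fold change of BSA over Control was 0.66 ± 0.05, the groups apart (edgeR's quasi-likelihood test, adjusted p = 4.11e-15). Eif4g2, a scaffold relative that lacks the eIF4E site and serves cap-independent initiation (chromosome 7, 111067750 to 111083030), had 1139, 1148 and 1158 CPM in Taxinine, 1040, 999 and 1025 CPM in BSA and 819, 795 and 824 CPM in Control, a log2 fold change of 0.33 ± 0.04 in BSA over Control. The 3 groups were thus in separate ranges for Eif4g2. The scaffolds that do bind eIF4E were not called with TMM: Eif4g1 averaged 434 ± 18.6 CPM in Taxinine, 427.3 ± 16.3 CPM in BSA and 410.6 ± 9.45 CPM in Control, and Eif4g3 averaged 231.7 ± 2.83, 224.3 ± 4.58 and 221.4 ± 2.54 CPM in the same groups (SD, n = 3). The helicase cofactor Eif4b was not called either, at 559 ± 5.73 CPM in BSA and 543.6 ± 7.85 CPM in Control. Eif4h, its smaller relative, and Eif4a3, the helicase of the exon junction complex, rose by 0.21 and 0.15 on the log2 scale with TMM and were at -0.02 and -0.08, uncalled, with plain totals. The call of Eif4a3 was also lost without Control replicate 1 or 3 or BSA replicate 3, at 0.12 to 0.15. The cap-binding relatives Eif4e2 and Eif4e3 were not called, with log2 fold changes of 0.03 each under TMM. With plain totals Eif4b, Eif4e2, Eif4g1 and Eif4g3 were called lower, at -0.21 to -0.17.

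Upstream sequence is shown for the eIF4A pair, because the helicases moved in opposite directions, and for the E-box CACGTG, a site that Myc and related factors can bind, in capitals below. Sequences are from the RefSeq promoter table of GRCm38.p6, read 5′ to 3′ on the strand of the gene. Eif4a1 is chr11:69672424-69672673, the 250 bases before its start on the minus strand, and Eif4a2 is chr16:23107218-23107443, on the plus strand, 226 bases that end 25 bases before its start and hold no CACGTG.
Eif4a1: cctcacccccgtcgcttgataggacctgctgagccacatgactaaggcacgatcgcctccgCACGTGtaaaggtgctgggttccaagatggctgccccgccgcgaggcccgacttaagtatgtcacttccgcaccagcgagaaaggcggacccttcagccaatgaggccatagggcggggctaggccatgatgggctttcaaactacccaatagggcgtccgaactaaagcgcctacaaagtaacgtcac
Eif4a2: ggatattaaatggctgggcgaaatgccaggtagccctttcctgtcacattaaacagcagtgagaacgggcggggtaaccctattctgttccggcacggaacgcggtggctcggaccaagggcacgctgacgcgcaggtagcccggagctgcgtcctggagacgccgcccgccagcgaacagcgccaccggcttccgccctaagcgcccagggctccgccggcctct
CACGTG reads the same on both strands, and it occurred within the 250 upstream bases of 9 of the 38 members with an entry (23.7%), beside 9.65% of 10592 genes of the count table that have an entry. Those 9 are Eif1b, Eif3f, Eif3k, Eif4a1, Eif4e, Eif4g1, Eif4h, Eif5a and Eif5a2. For each motif here a gene counted if any of its listed starts had it, so more starts give more chances. Over all 32851 windows of the promoter entries, CACGTG was in 6.02%. The stretches below, 30 bases each, show every such site in members that rose in BSA under TMM, and that of Eif4g1, which was not called.
Eif4a1 chr11:69672595-69672624, minus strand: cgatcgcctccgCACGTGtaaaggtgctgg
Eif4e chr3:138527028-138527057, plus strand: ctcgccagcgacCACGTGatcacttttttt
Eif4e chr3:138527192-138527221, plus strand: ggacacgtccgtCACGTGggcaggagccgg
Eif3f chr7:108934335-108934364, plus strand: caagatatgattCACGTGgtataaatttag
Eif3k chr7:28981915-28981944, minus strand: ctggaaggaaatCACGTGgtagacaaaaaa
Eif5a chr11:69921443-69921472, minus strand: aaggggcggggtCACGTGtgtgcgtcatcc
Eif5a chr11:69920791-69920820, minus strand: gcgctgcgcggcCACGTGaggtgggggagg
Eif4h chr5:134639488-134639517, minus strand: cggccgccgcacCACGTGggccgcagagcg
Eif4g1 chr16:20672661-20672690, plus strand: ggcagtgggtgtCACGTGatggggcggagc
The site begins 189 bases before the start of Eif4a1, 228 and 64 bases before a start of Eif4e, 68 bases before Eif3f, 44 before Eif3k, 74 and 178 before separate starts of Eif5a, 96 before Eif4h and 54 before Eif4g1. Annotated exons, of the member or of another gene, cover all 30 bases of both Eif4e stretches, 20 of the second Eif5a stretch and 3 of that of Eif4h. The cAMP response element TGACGTCA was in 0 of the 38 members' windows, beside 3.01% of genes, and the ETS motif CCGGAAG, searched on both strands, was in 12 (31.6%), beside 15.4% of genes. CACGTG was thus present in members that rose under TMM, in Eif1b, which fell, and in the uncalled Eif4g1 and Eif5a2. Of the members called higher under every scaling, only Eif4a1 and Eif4e had the site. Eif1, Eif2s2, Eif2d and Eif3a had an entry without CACGTG, and Eif1a and Eif4g2 had no entry. Eif3f, Eif3k, Eif4h and Eif5a were below 0 and uncalled with plain totals. A link between the site and the changes was not tested. A match in letters describes the sequence and shows no binding.

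Start codon factors came next in the size of their changes. Of 7 members, 4 rose and 2 fell in BSA under TMM, with a median log2 fold change of 0.18, and 2 were called higher and 3 lower with plain totals. Eif1 (chromosome 11, 100319885 to 100322096) had 721, 744 and 766 CPM in Taxinine, 695, 665 and 691 CPM in BSA and 470, 512 and 485 CPM in Control, a log2 fold change of 0.48 ± 0.04 in BSA over Control. All 3 groups were apart, with Taxinine highest. Eif1a, an eIF1A gene (chromosome 18, 46597701 to 46616456), had 137, 132 and 135 CPM in Taxinine, 152, 147 and 141 CPM in BSA and 98.0, 94.1 and 98.1 CPM in Control, a log2 fold change of 0.60 ± 0.05 (edgeR's quasi-likelihood test, adjusted p = 2.87e-14). In each of these genes the BSA libraries lay above the Control libraries. Eif5, the GTPase-activating partner of eIF2 (chromosome 12, 111538016 to 111546752), had 676, 664 and 690 CPM in Taxinine, 592, 622 and 567 CPM in BSA and 515, 493 and 502 CPM in Control. Its log2 fold change of 0.24 ± 0.04 in BSA over Control was called under TMM and was 0.01, uncalled, with plain totals. Eif1b, a close copy of Eif1 named after its values were seen, had 32.7, 32.6 and 35.3 CPM in Taxinine, 36.2, 30.0 and 40.4 CPM in BSA and 41.1, 43.8 and 40.0 CPM in Control. It fell by 0.23 ± 0.07 in BSA, and the groups overlapped. The call was lost without BSA replicate 2 (log2 fold change -0.13), without Control replicate 2 (-0.20) and in DESeq2 (-0.22). Eif1ax, the second eIF1A gene, rose by 0.18 under TMM, was at -0.05, uncalled, with plain totals, and lost its call at 0.13 without BSA replicate 1. Eif1ad, a protein with an eIF1A-like domain, fell by 0.16 and lost its call at -0.14 without BSA replicate 2 and at -0.15 in DESeq2. Eif5b, which joins the ribosomal subunits, was not called, at 121.6 ± 8.52 CPM in BSA and 118 ± 1.56 CPM in Control, and was called lower at -0.19 with plain totals. Exons of Eif1ad and Eif5b overlap those of Banf1 and Rev1 on the opposite strand over 15.33% and 16.85% of their length. Those of Eif1b overlap an antisense gene over 12.71%.

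Under TMM, the 3 subunits of eIF2 all rose in BSA, and 3 of the 5 subunits of its exchange factor fell. The rises were those of Eif2s1, Eif2s2 and Eif2s3x, the alpha, beta and gamma subunits of eIF2, and the falls those of Eif2b1, Eif2b2 and Eif2b4, the alpha, beta and delta subunits of eIF2B. The other two eIF2B subunits were not called with TMM, with log2 fold changes of 0.24 for Eif2b3 and -0.11 for Eif2b5. Plain totals called 1 of these 8 members higher, Eif2s2, and 4 lower. Eif2s2 (chromosome 2, 154871410 to 154892935) had 287, 287 and 295 CPM in Taxinine, 307, 292 and 297 CPM in BSA and 231, 231 and 237 CPM in Control, a log2 fold change of 0.36 ± 0.04 with no overlap between BSA and Control. The rises of Eif2s1 and Eif2s3x were smaller, at 0.23 ± 0.05 and 0.15 ± 0.05, and with plain totals they were at 0.01 and -0.08 and not called. Eif2s3x also lost its call, at 0.13, without Control replicate 3 or BSA replicate 1. Eif2b4 (chromosome 5, 31187558 to 31193430) had 12.3, 11.2 and 12.0 CPM in Taxinine, 9.49, 9.54 and 9.46 CPM in BSA and 12.1, 12.0 and 12.6 CPM in Control. It fell by 0.37 ± 0.11 in BSA (edgeR's quasi-likelihood test, adjusted p = 0.00504), the BSA libraries below all others. Its exons overlap those of Snx17 on the opposite strand over 7.85% of their length. Eif2b2 (chromosome 12, 85219481 to 85226628), named after its values were seen, had 32.2, 32.6 and 33.6 CPM in Taxinine, 31.3, 27.4 and 33.6 CPM in BSA and 37.3, 38.5 and 37.8 CPM in Control, a fall by 0.30 ± 0.07 in BSA without overlap. Eif2b1 fell by 0.22 ± 0.08 and lost its call without Control replicate 2 (-0.14) or BSA replicate 2 (-0.17) and in DESeq2 (-0.21). Eif2b5, the catalytic subunit, averaged 48.49 ± 0.883 CPM in Taxinine, 43.59 ± 3.44 CPM in BSA and 47.05 ± 1.28 CPM in Control and was called only with plain totals or limma, at -0.34 in BSA over Control. Eif2b3, the gamma subunit, averaged 12.2 ± 1.16, 13.88 ± 1.63 and 11.68 ± 1.1 CPM in the same groups and was not called. Of the alternative carriers of the initiator tRNA, Eif2d (chromosome 1, 131153181 to 131187658) had 72.4, 73.4 and 74.9 CPM in Taxinine, 76.7, 85.3 and 78.1 CPM in BSA and 56.5, 58.4 and 61.9 CPM in Control. It rose by 0.44 ± 0.06 with no overlap, whereas Eif2a was not called with TMM at -0.07 ± 0.05 and was called lower at -0.30 with plain totals.

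eIF3, the largest initiation complex, gave small differences of similar size. Of its 14 members, 8 rose and 0 fell in BSA under TMM, with a median log2 fold change of 0.15, whereas plain totals gave 1 called higher, Eif3a, and 2 called lower, Eif3e and Eif3l. By edgeR with TMM 0 of the 14 were lower at an unadjusted p under 0.05 as well, and DESeq2 also called 8 higher and 0 lower. Eif3a, the scaffold subunit (chromosome 19, 60761117 to 60790658), had 712, 709 and 718 CPM in Taxinine, 698, 726 and 731 CPM in BSA and 573, 553 and 580 CPM in Control. Its log2 fold change was 0.34 ± 0.04 in BSA over Control, and all activated libraries lay above all Control libraries. The other 7 called subunits (Eif3b, Eif3c, Eif3f, Eif3g, Eif3h, Eif3k and Eif3m) had log2 fold changes of 0.14 to 0.24 with TMM and of -0.08 to 0.01 with plain totals. Eif3f had 186, 208 and 210 CPM in Taxinine, 217, 205 and 248 CPM in BSA and 187, 199 and 195 CPM in Control, so BSA lay above Control without overlap and overlapped with Taxinine. Its call was lost without BSA replicate 3, where the log2 fold change was 0.12. Eif3b lost its call without Control replicate 1 or BSA replicate 3, Eif3m without Control replicate 1 or BSA replicate 1, and Eif3k without Control replicate 1 or 3 or BSA replicate 1, at 0.10 to 0.15. Eif3d, Eif3e, Eif3i, Eif3j1 and Eif3l were not called with TMM, with log2 fold changes of 0.10 to 0.12. Exons of Eif3d and Eif3j1 overlap those of Gm17638 and Spg11 on the opposite strand over 43.3% and 18.99% of their length. Eif3j2, a near copy of Eif3j1 with 8 to 25 counts a library, was not called at 0.63 ± 0.31, and its reads may be shared with Eif3j1.

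Of the 4 eIF4E inhibitors, edgeR with TMM called 0 in BSA against Control, with 0 at an unadjusted p under 0.05 and 0 called by DESeq2, whereas plain totals called 3 lower. Eif4ebp1 had 59.8, 64.4 and 67.2 CPM in Taxinine, 73.3, 68.3 and 79.2 CPM in BSA and 74.0, 75.1 and 66.1 CPM in Control, a log2 fold change of 0.03 ± 0.06 in BSA over Control that became -0.19 and called lower with plain totals. Eif4ebp2, the form prominent in neurons, had 83.5, 97.7 and 79.4 CPM in Taxinine, 81.8, 83.1 and 76.1 CPM in BSA and 88.6, 82.9 and 84.4 CPM in Control, with all groups overlapping, and was not called at -0.08 ± 0.06 in BSA over Control. Eif4enif1, which carries eIF4E into the nucleus, was at 0.06 ± 0.06, and Eif4ebp3 had 2 to 6 counts a library, too few to show a difference. Of the Eif4ebp3 exon length, 67.34% is shared on the same strand with the protein-coding AC115631.1, which is absent from the counts. Whether reads were lost to this overlap was not tested. Of the last group, Eif5a had 677, 693 and 693 CPM in Taxinine, 777, 699 and 749 CPM in BSA and 640, 676 and 654 CPM in Control, a log2 fold change of 0.18 ± 0.04 that was called with TMM and was -0.05, uncalled, with plain totals. Eif6, which keeps the large ribosomal subunit apart, was called at 0.14 ± 0.05 with TMM and was at -0.08, uncalled, with plain totals. The call of Eif6 was lost at 0.13 to 0.14 without Control replicate 1 or 3 or BSA replicate 1 or 3. The second eIF5A gene, Eif5a2, was not called.

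**Figure D3:**
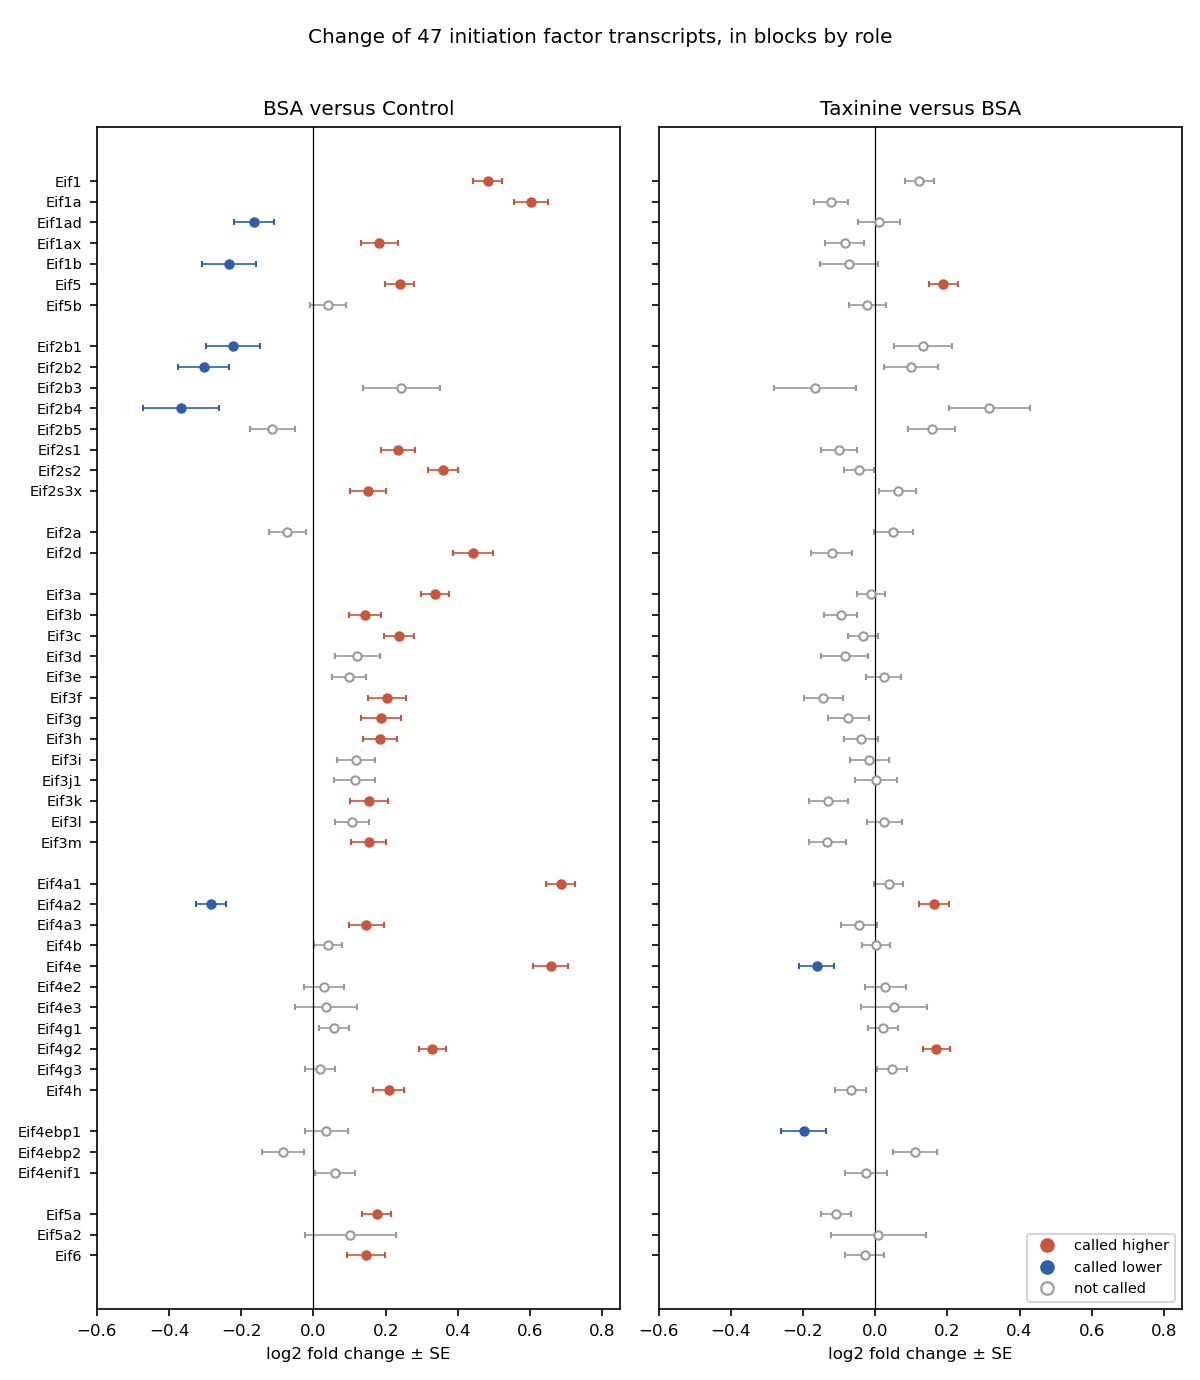
Log2 fold change ± SE of 47 members in blocks by role, for BSA versus Control (left) and Taxinine versus BSA (right), without the low-count Eif3j2 and Eif4ebp3 and with filled points for members called by edgeR. On the left 23 members are called higher and 6 lower, and on the right 3 are called higher and 2 lower.

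**Figure D4:**
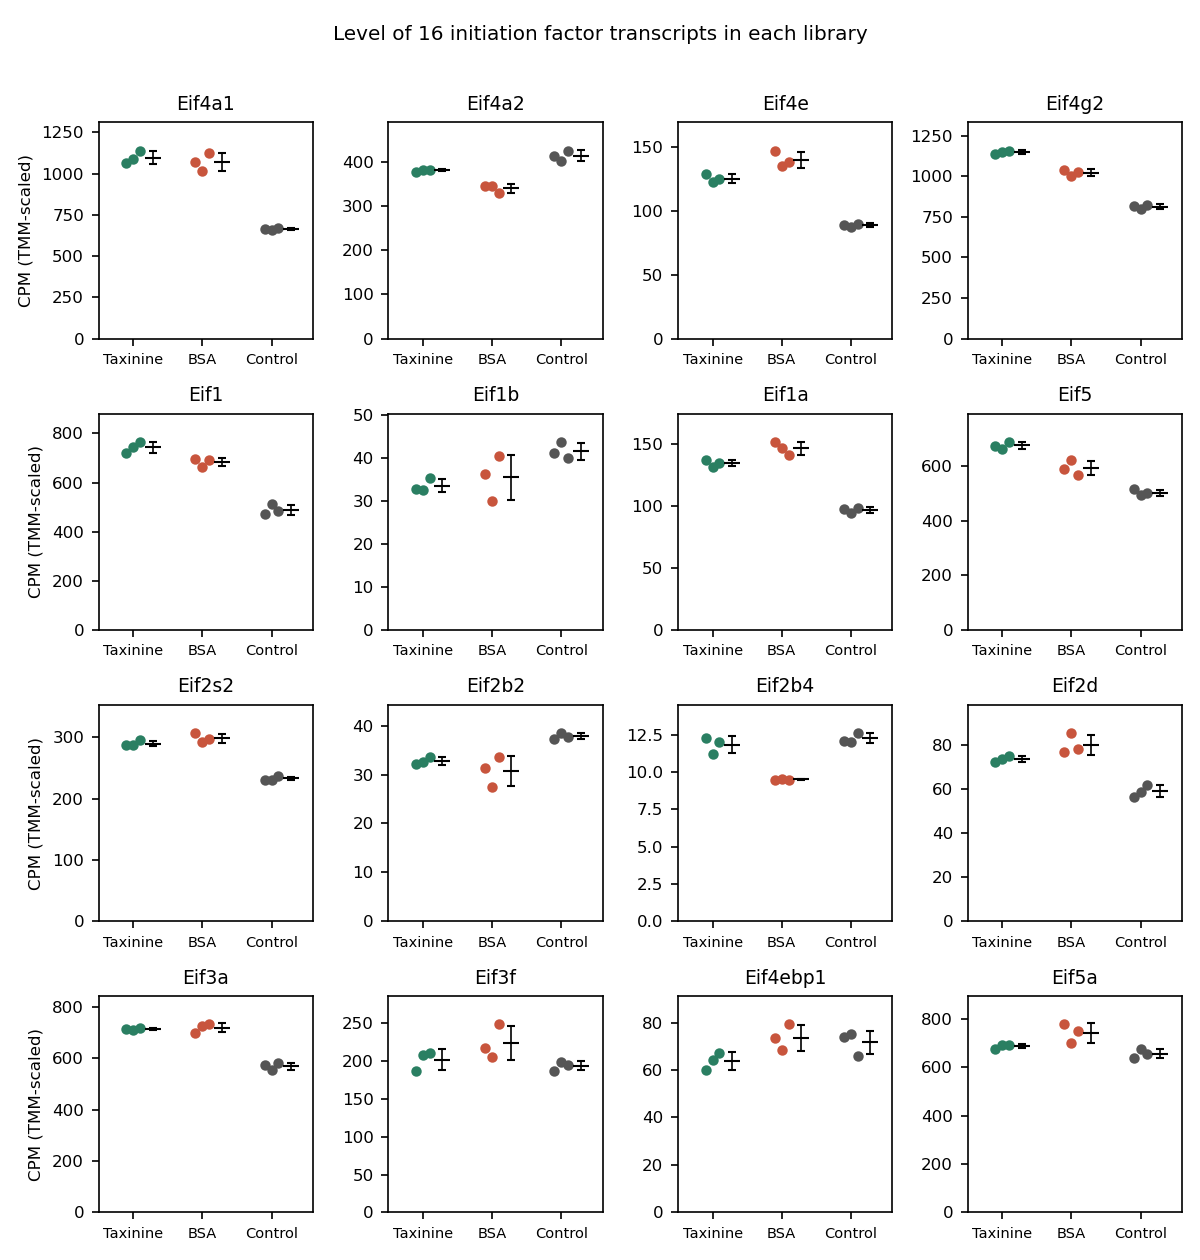
CPM (TMM-scaled, axis from 0) of 16 members in each library, points for the 3 libraries of Taxinine, BSA and Control and bars for mean ± SD. Eif4a1, Eif1 and Eif4e stand higher in both activated groups than in Control, and Eif4a2 and Eif2b4 are lowest in BSA.

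Ratios of members within a library do not depend on the scaling of totals, and 11 such ratios were computed from counts. They were chosen after the members' values were seen, so they are given as a description with no test. Eif4a1 over Eif4a2 was 2.818, 2.846 and 2.992 in Taxinine, 3.099, 2.941 and 3.424 in BSA and 1.608, 1.643 and 1.575 in Control. The difference in the log2 ratio was 0.97 in BSA over Control, which restates the opposite changes of the helicases on a scale free of library totals. Eif1 over Eif1b averaged 22.18 ± 0.576 in Taxinine, 19.48 ± 2.53 in BSA and 11.75 ± 0.350 in Control, and Eif1a over its X-linked relative Eif1ax averaged 1.505 ± 0.0119, 1.549 ± 0.0776 and 1.157 ± 0.0253 (SD, n = 3). Eif4e over Eif4ebp1 averaged 1.966 ± 0.163 in Taxinine, 1.904 ± 0.146 in BSA and 1.241 ± 0.103 in Control. The summed eIF2 subunits over the summed eIF2B subunits averaged 3.744 ± 0.0439 in Taxinine, 4.165 ± 0.285 in BSA and 3.025 ± 0.147 in Control, with the 3 groups in separate ranges. Eif4g2 over Eif4g1 averaged 2.65 ± 0.131 in Taxinine, 2.394 ± 0.119 in BSA and 1.98 ± 0.0193 in Control. Of the 11 ratios, these 6 and those of Eif4e over Eif4e2 and over Eif4ebp2, 8 in all, were higher in every BSA library than in every Control library. Eif4g3 over Eif4g1 was lower without overlap, at 0.5344 ± 0.0167 in Taxinine, 0.5252 ± 0.0116 in BSA and 0.5392 ± 0.00630 in Control (SD, n = 3). The other two ratios overlapped between BSA and Control: Eif5a over Eif5a2 averaged 69.2 ± 5.05 in Taxinine, 76.54 ± 14.8 in BSA and 71.65 ± 12.4 in Control, and Eif4ebp1 over Eif4ebp2 averaged 0.7405 ± 0.0965, 0.9198 ± 0.111 and 0.8418 ± 0.0613 in the same groups. Reads of near copies (Eif4a1 and Eif4a2, Eif1 and Eif1b, Eif1a and Eif1ax) may be split between genes by the counting. The pseudogene Eif4a-ps4, left out of the members, had 62, 68 and 129 counts in Taxinine, 102, 99 and 104 counts in BSA and 47, 55 and 68 counts in Control, and whether these are reads of Eif4a1 was not tested.

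**Figure D5:**
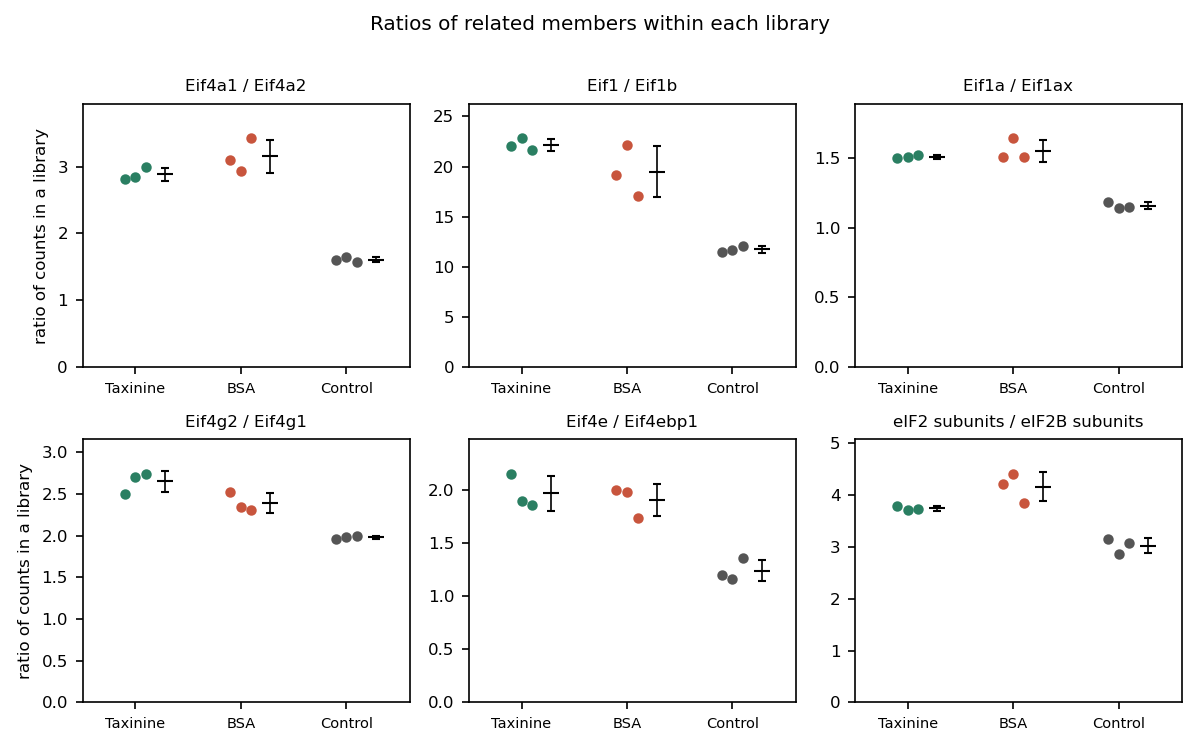
Ratio of counts of members within each library for 6 of the 11 ratios, all of them higher in BSA than in Control, points for the 3 libraries of Taxinine, BSA and Control. Eif4a1 over Eif4a2 lies at 2.818 to 2.992 in Taxinine, 2.941 to 3.424 in BSA and 1.575 to 1.643 in Control.

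Taxinine pretreatment was compared with antigen alone. This contrast and that of BSA with Control use the same BSA libraries, so a BSA library that reads high or low moves both in opposite directions. Few members changed: 3 rose and 2 fell in Taxinine against BSA by edgeR's quasi-likelihood test, 10.2% of the members beside 6.98% of all genes and 11.1% of the genes with a mean count of at least 100 (4.59% higher, 6.54% lower). The 3 higher members were 6.12% beside 2.86% of all genes, and the 2 lower members were 4.08% beside 4.12% of all genes, shares read from few genes. The groups did not overlap for 19 members (38.8%), beside 23.9% of all genes, and the median log2 fold change was -0.02 for the members and 0.00 for all genes. Eif5 rose by 0.19 ± 0.04 (edgeR's quasi-likelihood test, adjusted p = 0.00155), Eif4g2 by 0.17 ± 0.04 (adjusted p = 0.00214) and Eif4a2 by 0.16 ± 0.04 (adjusted p = 0.00848). For each of these, every Taxinine library lay above every BSA library, and each call held under plain totals, RLE, DESeq2 and limma. The call of Eif4a2 was lost without BSA replicate 3 and without Taxinine replicate 2, at edgeR quasi-likelihood adjusted p of 0.0540 and 0.0539, in a range of 0.00191 to 0.0540 over all alternatives.

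The falls were less stable. By edgeR's quasi-likelihood test Eif4e fell by 0.16 ± 0.05 (adjusted p = 0.0321) and Eif4ebp1 by 0.20 ± 0.06 (adjusted p = 0.0442), each with all Taxinine libraries below all BSA libraries. Both calls were lost with plain totals and with limma on the deposited values. The call of Eif4e was also lost without BSA replicate 1 or any of the 3 Taxinine replicates, with log2 fold changes of -0.18 to -0.13 there. That of Eif4ebp1 was lost in DESeq2, without BSA replicate 1 or 3 and without Taxinine replicate 1 or 2, with log2 fold changes of -0.20 to -0.14. Over all alternatives the adjusted p of edgeR's quasi-likelihood test, DESeq2 or limma was 0.0198 to 0.183 for Eif4e and 0.0125 to 0.248 for Eif4ebp1. Among the uncalled members, Eif1 had a log2 fold change of 0.12 ± 0.04 with no overlap, and Eif2b4 had 0.32 ± 0.11 with no overlap (adjusted p = 0.0572 and 0.0819 in edgeR's quasi-likelihood test). Eif1 was called higher with plain totals, DESeq2 and limma, at 0.12 to 0.15. For eIF3, edgeR called 0 of 14 in Taxinine against BSA, 5 were lower at an unadjusted p under 0.05, and DESeq2 called 0. The smallest p among them was that of Eif3f, at -0.14 ± 0.05, which was called lower, at -0.20, when BSA replicate 2 was left out.

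Taxinine and BSA share the antigen, and both were set against the same Control libraries, so their contrasts with Control are not independent. In Taxinine against Control 16 members rose and 5 fell (edgeR's quasi-likelihood test), 42.9% of the members beside 33.1% of all genes and 45.2% of those with a mean count of at least 100. The higher ones were 32.7% of the members beside 15.9% of all genes, and the lower ones 10.2% beside 17.2%. Among the genes with a mean count of at least 100, 23.1% were called higher and 22.1% lower. The groups did not overlap for 27 members (55.1%), beside 43.7% of all genes. The log2 fold change of Eif4a1 was 0.72 in Taxinine over Control beside 0.69 in BSA over Control, and that of Eif4e was 0.49 beside 0.66. Eif5 stood at 0.43 beside 0.24, Eif4g2 at 0.50 beside 0.33, Eif1 at 0.60 beside 0.48 and Eif4a2 at -0.12 beside -0.28. The Taxinine against Control call of Eif4a2 was lost without Control replicate 3 and without Taxinine replicate 1 or 3, at -0.1223 to -0.0994. Eif1b was at -0.31 ± 0.08 beside -0.23, without overlap between Taxinine and Control. Its call in Taxinine against Control held under every scaling and whichever library was left out. Eif2b4, lower in BSA than in Control, was at -0.05 ± 0.10 in Taxinine over Control and not called. With plain totals 8 members were called higher and 22 lower in Taxinine against Control, so the balance of directions rests on the scaling here as well.

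Genes tied to initiation or to other steps of translation were counted from 6 lists. Each stands beside the 34.0% of all genes called in BSA against Control and the 6.98% called in Taxinine against BSA. Of 13 genes of eIF2 phosphorylation, 6 rose and 1 fell in BSA under TMM, while plain totals gave 3 higher and 6 lower. Ppp1r15a (GADD34), the inducible subunit that brings a phosphatase to eIF2, rose by 1.77 ± 0.05 on the log2 scale. Atf4, a transcription factor whose translation increases when eIF2 is phosphorylated, rose by 0.67 ± 0.04, and Ppp1r15b, the constitutive partner of that phosphatase, by 0.36. In Taxinine against BSA, Ppp1r15a fell by 0.29 and Impact, an inhibitor of the eIF2 kinase GCN2, rose by 0.27, the 2 calls of this list. Of 18 genes of the mTORC1 pathway, which controls the 4E-BPs, 6 rose and 2 fell in BSA under TMM, while plain totals gave 2 higher and 8 lower. Ddit4 (REDD1), an inhibitor of mTORC1, rose by 0.99, Rheb, the GTPase that activates it, rose by 0.76, and Mlst8, a subunit of the complex, fell by 0.84 in BSA. In Taxinine against BSA, 4 of these 18 rose, among them the mTORC1 inhibitors Tsc1, Tsc2 and Ddit4 by 0.22, 0.17 and 0.17, and DESeq2 called only Tsc1.

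Of the 14 eIF4F regulators in the table, 4 rose and 1 fell in BSA against Control under TMM, while plain totals gave 2 higher and 8 lower. Pdcd4, a protein that binds eIF4A and blocks its helicase activity, averaged 561.3 ± 16.6 CPM in Taxinine, 580.3 ± 15.7 CPM in BSA and 266.5 ± 6.27 CPM in Control. Its log2 fold change was 1.12 ± 0.04 in BSA over Control, and it was not called in Taxinine against BSA at -0.05 ± 0.04. Ddx3x, an RNA helicase that helps translate structured messages, rose by 1.05, and Gigyf1, a partner of eIF4E2, fell by 0.46. Mknk2, a kinase that phosphorylates eIF4E, averaged 301 ± 4.76 CPM in Taxinine, 228.1 ± 0.397 CPM in BSA and 182.7 ± 2.77 CPM in Control. It rose by 0.40 ± 0.04 in Taxinine against BSA (edgeR's quasi-likelihood test, adjusted p = 2.71e-09). The other two genes of this list called in Taxinine against BSA were Paip2b, an inhibitor of the poly(A)-binding protein, and Gigyf2, which rose by 0.27 and 0.19.

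Of 9 genes of ribosome recycling and reinitiation, 5 rose and 1 fell in BSA under TMM, while plain totals gave 2 higher and 3 lower. The release factor Etf1 rose by 0.99, and the release factor GTPase Gspt2 fell by 1.12 at a low level, 1.089 CPM in BSA and 2.363 CPM in Control. Of 12 elongation factors and related genes in the table, 4 rose and 2 fell under TMM, while plain totals gave 0 higher and 5 lower. The falls were those of Eef2k and Dohh, at -0.14 and -0.24, neither of them an elongation factor itself. Eef1a1, the carrier of aminoacyl-tRNA, was at 0.23 and Eef2, the translocase, at 0.22 with TMM, and they were at -0.00 and -0.01, uncalled, with plain totals. Of the 2 mitochondrial initiation factors, Mtif3 fell by 1.00 under TMM at a low level, 5.148 CPM in BSA and 10.33 CPM in Control. Mtif2 was not called at 0.01 under TMM, and plain totals gave 0 higher and 2 lower. In Taxinine against BSA, edgeR with TMM called 0 genes in each of the recycling, elongation and mitochondrial lists. DESeq2 called 1 gene of the elongation list lower there.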

How the data were processed

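Per the labels' protocols, polyA RNA was sequenced from stranded libraries as paired reads of 101 bases. Reads were aligned with STAR 2.7.0f, with mm10 and GRCm38 as the builds named and limma 3.11 as a further tool, per the submitters' processing notes. The sources used here do not give the counting program, its annotation or its strand setting. The deposited count table is named as TMM-normalised, but its values are whole counts with unequal totals and were used as unscaled counts. The deposited log2 table equals log2(CPM + 1) with plain totals to within 5e-05. Value columns that were not mapped to a sample numbered 0.

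Counts were tested with the quasi-likelihood method of edgeR 4.0.16 in R 4.3.3, with TMM factors, all 9 libraries in 1 fit and no replicate term, with Benjamini-Hochberg adjustment over all 15109 genes and a call at adjusted p under 0.05. No gene was filtered, so all 49 members were tested. Standard errors are the log2 fold change divided by the square root of the F statistic. Alternatives were plain totals, RLE factors, DESeq2 1.42.0, limma 3.58.1 on the deposited log2 values, a minimum count of 10 with filterByExpr, fits of 2 groups at a time, a replicate block and leaving out each library. Within-library ratios and the background of genes with a mean count of at least 100 were added after seeing the data. The procedure was tested on simulated data. Replicates of a group differed by more than sampling noise, with a chi-square per degree of freedom of 1.568 to 4.114 over genes.

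Coordinates and union exon lengths are from GENCODE M21 for GRCm38, in which 15106 of the 15109 identifiers were found. RefSeq promoter entries of GRCm38.p6 matched 38 members. Those not matched were Eif1a, Eif2b3, Eif3e, Eif3h, Eif3i, Eif3j2, Eif4e3, Eif4ebp1, Eif4ebp3, Eif4g2 and Eif6. Values in every library are given for members called in any comparison with a log2 fold change of at least 0.5 in size, and for the member with the smallest p of each role group in BSA against Control and in Taxinine against BSA. Of each further list, up to 3 genes with the smallest p are named. Eef2k and Dohh were named as the falls of their list in BSA against Control, after their values were seen. The members and lists were chosen with earlier results of these data known. Limits set by counts cover counting error only, because no molecular tags were used.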

Additional observations from a re-analysis of the deposited data

How the results depend on the processing

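The number of members called moved mainly with the scaling of library totals. With plain totals, 8 members were called higher and 18 lower in BSA against Control, 0 lower in Taxinine against BSA, and 8 higher and 22 lower in Taxinine against Control. Limma on the deposited log2 values, which are on plain totals, gave 8 and 18, 0 lower, and 8 and 21. DESeq2 gave 3, 1 and 2 members lower in these 3 comparisons. Under plain totals, and in the same numbers under limma, the sign changed with a call on at least one side for 21 members in BSA against Control (12 rises that turned negative and uncalled, and 9 uncalled positive values that were called lower) and for 19 in Taxinine against Control (5 and 14). Among the members picked by the rule for named genes, these were in BSA against Control Eif3f (-0.025 and -0.027), Eif4ebp1 (-0.19 and -0.19) and Eif5a (-0.053 and -0.053), and in Taxinine against Control Eif3f (-0.14 and -0.15), Eif4ebp2 (-0.18 and -0.18) and Eif5a (-0.14 and -0.13). By construction these fits leave out the TMM factors.

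Leaving out 1 library at a time gave 18 to 26 members higher and 3 to 7 lower in BSA against Control, where the count of 3 came without BSA replicate 2. In Taxinine against BSA it gave 2 to 4 higher and 0 to 4 lower, with 0 lower without BSA replicate 1 and without Taxinine replicates 1 or 2, 1 lower without BSA replicate 3 and without Taxinine replicate 3, and 4 lower without BSA replicate 2. In Taxinine against Control it gave 12 to 16 higher and 1 to 5 lower, with 3 lower without Control replicate 1 and without Taxinine replicates 2 or 3, 2 lower without Control replicates 2 or 3, and 1 without Taxinine replicate 1. In BSA against Control 15 of the 23 rises and 3 of the 6 falls were called in every such fit. The causes were not tested.

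Replicate numbers showed no sign of pairing: deviations of same-numbered libraries from their group means correlated at -0.135 to 0.0975. Those of differently numbered libraries correlated at -0.1256 to 0.1391. With 3 libraries a group this check cannot exclude a pairing. With the replicate number as a block, the fit called 23 higher and 6 lower in BSA against Control, 3 and 2 in Taxinine against BSA, and 16 and 5 in Taxinine against Control, the counts obtained without it. Low counts limited Eif3j2 and Eif4ebp3.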
